A study of Homo sapiens with 20 samples.

Results

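RNA levels of 9 B-cell genes were followed across myeloma and B-lymphoblastoid cells that were sensitive or resistant to proteasome inhibitors. The genes were CD79A, CD79B, CR2, CD22, CD72, MS4A1, CD24, BTK and BLK, chosen by symbol from the 18305 genes with values, and all 9 passed the expression filter that left 13089 genes for testing. AMO1, L363 and RPMI-8226 are myeloma lines, and ARH-77 is a B-lymphoblastoid line. Their wild-type (WT) cells were set beside bortezomib-resistant (BtzR) cells of the same 4 lines and carfilzomib-resistant (CfzR) cells labelled AMO1 and L363. Bortezomib and carfilzomib both inhibit the proteasome, and each resistant line was kept in 90 nM of its drug. WT cells received no drug, so long-term selection and the presence of drug cannot be told apart. All cells were cultured lines without added genetic changes in the labels, each resistant group is 1 line derived from its parent, and each of the 10 groups held 2 biological replicates.

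The products of most of these genes sit at the start of signalling from the B-cell receptor, and MS4A1 and CD24 are B-cell surface antigens. CD79A and CD79B pair as the signalling chains of the receptor, kinases such as BTK and the Src-family member BLK pass the signal on, CR2 (CD21) lowers the threshold for it within the co-receptor, and CD22 and CD72 carry inhibitory motifs that restrain it. As B cells mature to plasma cells, the cells from which myeloma arises, most of this surface machinery is turned down, and MS4A1 (CD20) is lost from the surface.

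The unit was FPKM, which scales the fragments of a gene by the length of its transcripts and by how many fragments the library had. Summed over the listed genes it came to 457317 to 494850 per library, and 10455 to 11023 genes reached 1 FPKM. Depth is unknown because no counts accompany the values, so no floor was computed and a value of 0 means only that the gene was listed at 0. Replicates of a group correlated at r = 0.986 to 0.998 across genes. The libraries labelled AMO1 CfzR stood apart from their label. Their correlation with the L363 libraries was 0.986 to 0.992, against 0.878 to 0.883 with the other AMO1 libraries, and they are therefore given separately below and compared with both parental lines. RPMI-8226 BtzR correlated with its own parent at 0.903 to 0.905, less than the other BtzR groups did but above its r with any other parental line, which was at most 0.857. The B-cell factor PAX5 was high in ARH-77, labelled as a B-cell line, at 45.4 and 33.6 FPKM in the WT libraries. In the myeloma libraries PAX5 did not exceed 0.14 FPKM. The plasma cell gene SDC1 averaged 3075 FPKM in AMO1 WT but was far lower in the other myeloma lines. It stood at 231 and 217 FPKM in L363 WT and at 56.3 and 54.85 FPKM in RPMI-8226 WT, against 8.40 and 9.09 FPKM in ARH-77 WT.

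Reference promoter sequence is shown for 3 of the genes. RefSeq windows of 250 bases before and 50 after a start site (GRCh38.p14) were at hand for 6 of the 9 genes, in 9 windows: CR2, CD24, CD72, CD22, CD79A and BTK. The 250 upstream bases of a BTK, a CR2 and the CD79A window are printed 5′ to 3′ along the gene's strand. BTK and CR2 are shown because both fell in RPMI-8226 BtzR, and CD79A because it was high in ARH-77 alone. Capitals mark the letters of any of 6 motifs searched on both strands.
BTK, chrX:101390797-101391046, minus strand: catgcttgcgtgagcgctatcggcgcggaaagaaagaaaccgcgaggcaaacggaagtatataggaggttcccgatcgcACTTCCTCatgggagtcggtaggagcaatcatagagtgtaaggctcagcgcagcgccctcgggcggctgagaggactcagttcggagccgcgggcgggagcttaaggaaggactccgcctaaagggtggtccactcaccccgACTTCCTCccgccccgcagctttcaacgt
CR2, chr1:207454078-207454327, plus strand: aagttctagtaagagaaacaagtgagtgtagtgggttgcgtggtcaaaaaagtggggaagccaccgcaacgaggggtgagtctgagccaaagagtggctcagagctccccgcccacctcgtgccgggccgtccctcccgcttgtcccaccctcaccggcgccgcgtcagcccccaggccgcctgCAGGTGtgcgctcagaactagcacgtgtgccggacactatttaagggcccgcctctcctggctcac
CD79A, chr19:41877029-41877278, plus strand: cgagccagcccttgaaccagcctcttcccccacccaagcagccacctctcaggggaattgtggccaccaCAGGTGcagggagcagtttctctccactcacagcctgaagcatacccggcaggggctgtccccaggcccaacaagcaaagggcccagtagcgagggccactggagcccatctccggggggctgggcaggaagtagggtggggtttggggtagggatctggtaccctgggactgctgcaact
The capitals in BTK are 2 matches to GAGGAAGT, a form of the site of the transcription factor PU.1, read on the opposite strand and starting 171 and 29 bases before the start site. This motif was in 2.59% of all 35116 windows of the same length. The capitals in CR2 and CD79A are the E-box CAGGTG, which was in 20.6% of windows. No 2 matches overlapped. None of the other motifs searched, namely the octamer ATGCAAAT (1.77% of windows), the EBF motif (1.21%), the NF-kappaB motif (0.558%) and TATAAA (11.5%), was in these 3 windows, and the CD22 window held none of the 6. These matches describe letters in the reference genome and not binding.

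CD79A (gene ID 973) was abundant in ARH-77 and at 1.70 FPKM or below elsewhere. It stood at 172 and 212 FPKM in ARH-77 WT and at 211 and 264 FPKM in ARH-77 BtzR. In AMO1 it was 1.44 and 1.54 FPKM in WT and 1.70 and 1.66 FPKM in BtzR cells, so the resistant libraries lay slightly above. L363 had 1.42 and 0.92 FPKM in WT, 0.57 and 0.42 FPKM in BtzR and 1.02 and 0.88 FPKM in CfzR cells. Here BtzR lay below WT, and CfzR overlapped it. The lowest means were in RPMI-8226, with 0.52 and 0.22 FPKM in WT and 0 and 0.05 FPKM in BtzR cells. The libraries labelled AMO1 CfzR had 1.49 and 1.40 FPKM, inside the combined range of AMO1 WT and L363 WT. Every ARH-77 library thus lay above every myeloma library, and the 2 ARH-77 groups overlapped each other.

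Its partner CD79B (gene ID 974) did not follow this order, although the proteins form a heterodimer. The highest CD79B level was in AMO1 WT, at 51.3 and 52.5 FPKM, above both ARH-77 groups. ARH-77 had 32.3 and 40.4 FPKM in WT and 36.0 and 38.7 FPKM in BtzR cells, which overlapped. Below ARH-77 the groups were spread over a wide range. The libraries labelled AMO1 CfzR came first with 25.7 and 26.7 FPKM, and AMO1 BtzR followed with 24.3 and 24.5 FPKM, below both AMO1 WT libraries. In L363 the direction was the opposite one, since the WT libraries at 9.51 and 8.95 FPKM lay below BtzR at 22.1 and 17.2 FPKM and below CfzR at 18.2 and 19.4 FPKM. RPMI-8226 WT had 2.76 and 2.51 FPKM and RPMI-8226 BtzR 0.12 and 0.09 FPKM, the lowest of all. The reference annotation (GENCODE 29) has a second protein-coding gene, AC127029.3, overlapping CD79B on the same strand, so reads may be shared between them and CD79B is uncertain to that extent.

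The balance of the chains therefore separated ARH-77 from the myeloma lines, whose ratios overlapped each other. The uncertainty of CD79B from AC127029.3 carries over to the ratio. CD79A exceeded CD79B by 5.26 to 6.82 times in the 4 ARH-77 libraries on the FPKM scale. In the 16 myeloma libraries CD79B exceeded CD79A, with a CD79A to CD79B ratio of 0.0244 to 0.188 apart from RPMI-8226 BtzR, where both genes were near 0 and the ratio was 0 and 0.556. The plot of both chains by library shows this crossing.

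**Figure D1:**
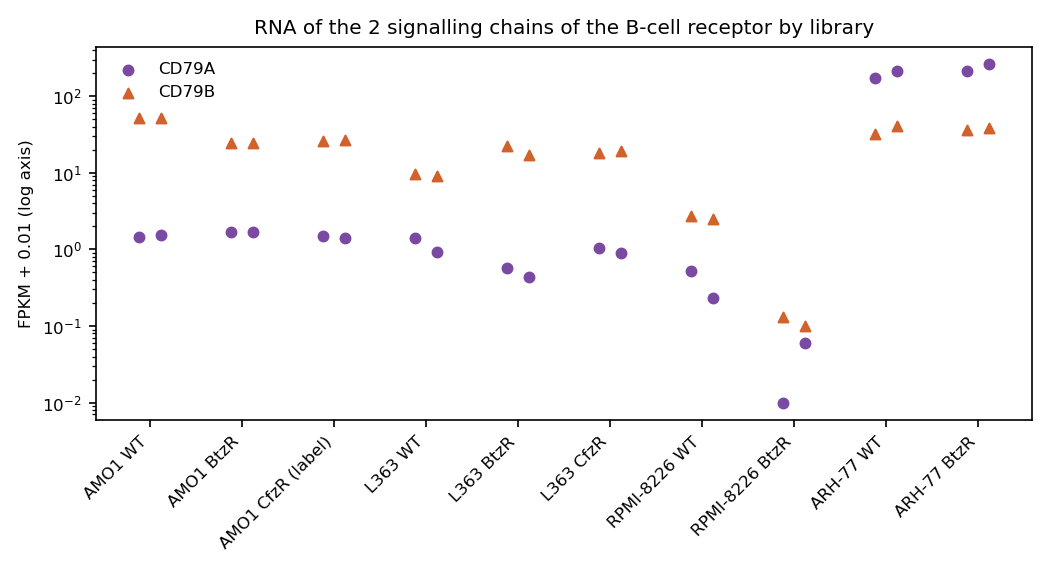
FPKM of CD79A (circles) and CD79B (triangles) in each of the 20 libraries, on a log axis after adding 0.01 so that a library listed at 0 can be drawn. CD79A lies above CD79B in the 4 ARH-77 libraries and below it in the 16 myeloma libraries, and both chains are lowest in RPMI-8226 BtzR.

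CR2 (gene ID 1380), the receptor for complement fragments in the B-cell co-receptor, was an ARH-77 gene with a lower level in RPMI-8226. ARH-77 had 66.9 and 53.4 FPKM in WT and 63.9 and 45.8 FPKM in BtzR cells, which overlapped. RPMI-8226 WT came next with 5.99 and 5.94 FPKM, and RPMI-8226 BtzR had 0.06 and 0.13 FPKM. In AMO1 the levels were 0.73 and 0.45 FPKM in WT and 0.07 and 0.08 FPKM in BtzR cells, which did not overlap. L363 WT had 0.01 and 0.04 FPKM, and CR2 was listed at 0 in both libraries of L363 BtzR, L363 CfzR and the pair labelled AMO1 CfzR.

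CD22 (gene ID 933), a sialic acid-binding inhibitory receptor, had the highest mean of the 9 genes in both ARH-77 groups and was close to absent from the myeloma libraries. ARH-77 WT had 169 and 231 FPKM and ARH-77 BtzR 251 and 272 FPKM, so that the groups did not overlap. RPMI-8226 WT, at 0.45 and 0.43 FPKM, was the highest myeloma group, and RPMI-8226 BtzR had 0.04 and 0.20 FPKM. The other 12 myeloma libraries lay between 0 and 0.06 FPKM. In mean FPKM, CD22 in ARH-77 WT was above 98.4% of the listed genes and in AMO1 WT above 19.5% of them. In the annotation a sense intronic gene, U62631.1, and the microRNA gene MIR5196 overlap CD22 on the same strand.

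CD72 (gene ID 971), an inhibitory receptor of the C-type lectin family, differed in its pattern because RPMI-8226 expressed it as highly as ARH-77. ARH-77 had 3.54 and 6.23 FPKM in WT and 3.81 and 4.83 FPKM in BtzR cells. RPMI-8226 WT had 5.28 and 3.73 FPKM, and the RPMI-8226 BtzR replicates stood far from each other at 14.0 and 4.63 FPKM. These 4 groups overlapped along their order, while the 12 libraries of AMO1, L363 and the pair labelled AMO1 CfzR lay between 0 and 0.15 FPKM. CD72 overlaps TESK1 and 2 antisense genes on the opposite strand in the annotation, and since the strand handling is not given, reads from them cannot be told apart here.

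MS4A1 (gene ID 931), the CD20 antigen, was seen at more than 0.23 FPKM in ARH-77 alone. Its levels there were 57.7 and 63.0 FPKM in WT and 75.8 and 78.9 FPKM in BtzR cells, which did not overlap. Among myeloma libraries AMO1 BtzR was highest with 0.11 and 0.23 FPKM, followed by AMO1 WT with 0.06 and 0.07 FPKM. The other 12 libraries lay between 0 and 0.03 FPKM.

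CD24 (gene ID 100133941), a small glycosylphosphatidylinositol-anchored antigen of early B cells, was low throughout and is uncertain because near-identical copies of the gene exist to which reads may be assigned. Only ARH-77 BtzR stood out, at 4.20 and 3.02 FPKM against 1.00 and 1.11 FPKM in ARH-77 WT. The AMO1 libraries had 0.80 and 0.87 FPKM in WT and 0.64 and 0.78 FPKM in BtzR cells. RPMI-8226 had 1.22 and 0.94 FPKM in WT and 0.59 and 1.21 FPKM in BtzR cells. The 8 other libraries, those of L363 and the pair labelled AMO1 CfzR, lay between 0.40 and 0.96 FPKM, so apart from ARH-77 BtzR the groups formed a nearly continuous run.

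BTK (gene ID 695), the kinase that activates phospholipase C gamma downstream of the receptor, was present in 3 of the 4 parental lines. ARH-77 had 47.7 and 52.2 FPKM in WT and 59.6 and 59.9 FPKM in BtzR cells. RPMI-8226 WT had 40.6 and 36.5 FPKM and AMO1 WT 16.2 and 23.0 FPKM, and none of these 4 groups overlapped its neighbour. The resistant cells of both myeloma lines were almost without BTK RNA, with 0.08 and 0.08 FPKM in AMO1 BtzR and 0.06 and 0.04 FPKM in RPMI-8226 BtzR. L363 had little BTK in any state, with 0.53 and 0.49 FPKM in WT, 0.42 and 0.57 FPKM in BtzR and 0.19 and 0.48 FPKM in CfzR cells. The libraries labelled AMO1 CfzR, at 0.21 and 0.33 FPKM, overlapped L363 CfzR and not AMO1 WT.

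BLK (gene ID 640), a Src-family kinase of the B lineage, resembled CR2 in its order. ARH-77 had 98.9 and 101 FPKM in WT and 101 and 108 FPKM in BtzR cells, which overlapped. RPMI-8226 WT followed with 17.2 and 18.5 FPKM, while RPMI-8226 BtzR had 0.25 and 0.40 FPKM and overlapped AMO1 WT at 0.26 and 0.43 FPKM. AMO1 BtzR had 0.08 and 0.16 FPKM, and the 8 libraries of L363 and the pair labelled AMO1 CfzR had at most 0.05 FPKM. An antisense gene, AC022239.1, overlaps BLK in the annotation.

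**Figure D2:**
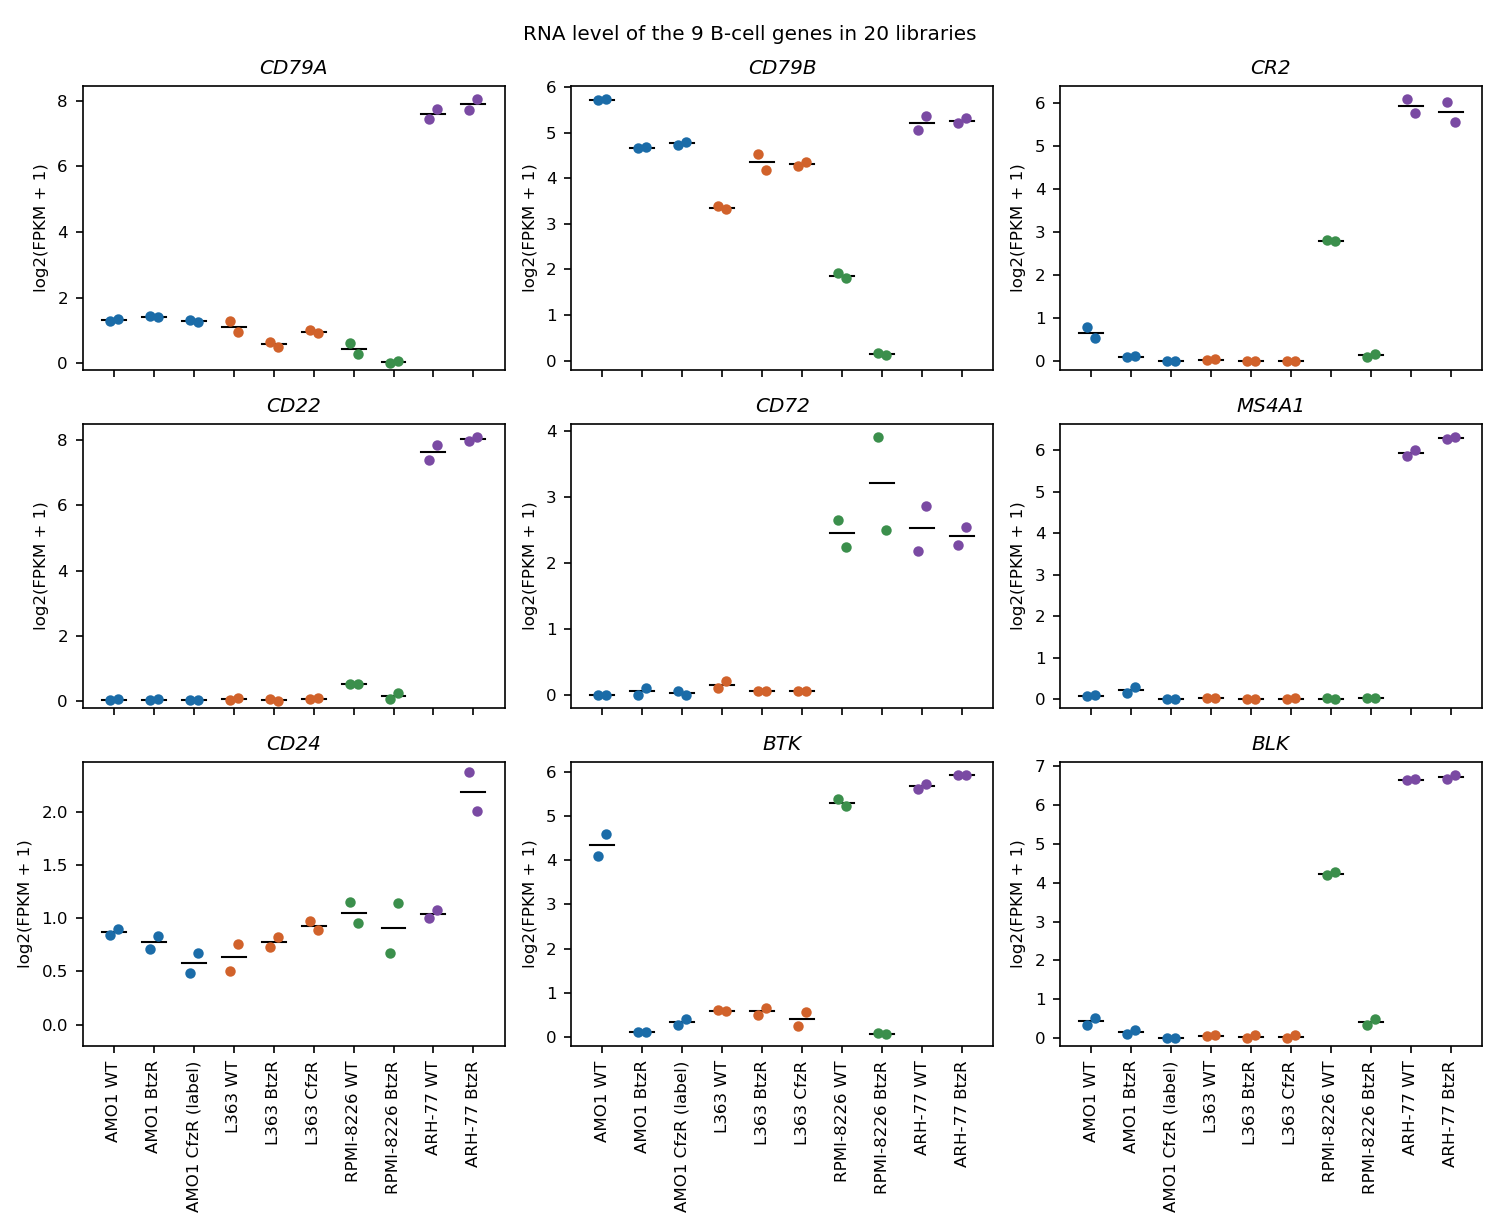
Level of each of the 9 genes as log2(FPKM + 1) in the 20 libraries, with 1 point per library, a bar at the group mean and colours for the cell line in the label. CD79A, CD22 and MS4A1 are high in the ARH-77 libraries, CR2, BLK, BTK and CD72 are also present in RPMI-8226 WT, and CD79B is present in every group but RPMI-8226 BtzR.

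The parental lines were compared to ask which of these genes distinguish the B-lymphoblastoid line from myeloma cells. In ARH-77 WT, 8 of the 9 genes were higher than the mean of AMO1, L363 and RPMI-8226 WT, where 11.9% of all tested genes were called higher and 10.3% lower. A call needed an adjusted p under 0.05 (limma, Benjamini-Hochberg over all tested genes) and a log2-fold change of 1 or more in size, with fold changes on the log2(FPKM + 1) scale, which understates changes of low genes. The median log2-fold change of the 9 genes was 4.76, beside 0.04 over all tested genes. Differences were largest for CD22 (log2-fold change 7.42, SE 0.10, adjusted p = 6.4e-17), CD79A (6.63, SE 0.12, adjusted p = 1.2e-15) and MS4A1 (5.89, SE 0.06, adjusted p = 8.9e-18). CD22 and MS4A1 passed the expression filter through the ARH-77 groups alone. A call as higher in ARH-77 was thus nearly given for them, here and in the comparisons by line below, and their calls add no support. The 8 genes, the median of 4.76 and the counts by line below include both. The calls that did not rest on the filter in this way were those of CD79A, BLK, CR2, BTK, CD72 and CD79B. BLK was 5.09 higher (adjusted p = 1.9e-16) and CR2 was 4.76 higher (adjusted p = 2.5e-14). CD79B (1.57, SE 0.09) and CD72 (1.65, SE 0.26) were called in spite of overlap, since AMO1 WT exceeded ARH-77 in CD79B and RPMI-8226 WT overlapped it in CD72. The error is between libraries of these 4 lines, so the test compares the lines and not the cell types, and in bulk RNA fewer expressing cells and less RNA per cell cannot be told apart.

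Taken line by line, the comparison depended on the myeloma line. Against L363 WT, 8 genes were higher, where 13.8% of tested genes were called higher, and CD24 was not called. Against AMO1 WT 7 genes were higher, where the share of all tested genes was 12.7%, and CD79B was lower by a log2-fold change of -0.51 that did not reach the fold threshold (SE 0.11, adjusted p = 9.5e-04). Against RPMI-8226 WT 6 were higher, where the share was 15.1%. The 3 not called there were CD72 (log2-fold change 0.07, SE 0.32), BTK (0.37, SE 0.14) and CD24 (-0.01, SE 0.15). BLK and CR2, which RPMI-8226 WT expressed at a lower level, were 2.42 and 3.12 higher in ARH-77 on the log2 scale. These comparisons share the ARH-77 WT libraries.

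**Figure D3:**
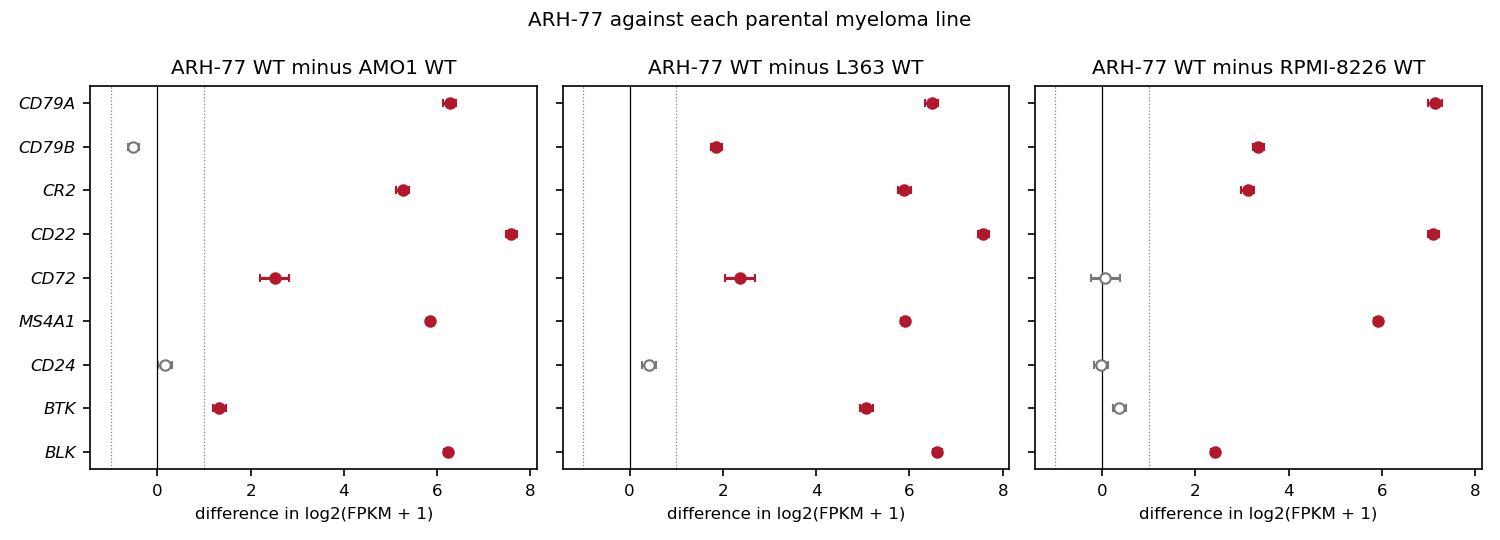
Difference in log2(FPKM + 1) of each gene between ARH-77 WT and each parental myeloma line, with bars of 1 standard error from the limma fit, filled points for called differences and dotted lines at the fold threshold. CD22, CD79A, MS4A1, CR2 and BLK are higher in ARH-77 against all 3 lines, while CD79B is not higher against AMO1 and CD72 and BTK are not called against RPMI-8226.

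Resistant cells were compared with their own WT cells to ask how these genes changed with proteasome inhibitor resistance. In RPMI-8226 BtzR, 4 of the 9 genes fell, where 7.92% of all tested genes were called lower, and none rose, where 5.91% were called higher. BTK fell by 5.23 on the log2 scale (SE 0.14, adjusted p = 2.4e-13) and BLK fell by 3.83 (SE 0.09, adjusted p = 6.4e-14). CR2 fell by 2.67 (SE 0.14, adjusted p = 3.6e-10) and CD79B by 1.72 (SE 0.11, adjusted p = 6.7e-09). The resistant libraries lay below both WT libraries for each of these 4 genes. On the log2(FPKM + 1) scale a gene under 1 FPKM in WT cells cannot fall by 1. MS4A1, CD22 and CD79A, with means under 1 FPKM in RPMI-8226 WT, could therefore not be called lower. CD22 (log2-fold change -0.37, adjusted p = 0.017) and CD79A (-0.41, adjusted p = 0.025) were below the fold threshold from starting levels under 1 FPKM, and both were called with a pseudocount of 0.1 in place of 1, at -1.40 and -1.86. CD72 had a log2-fold change of 0.75 (SE 0.32, adjusted p = 0.057). Without RPMI-8226 BtzR replicate 2 it was 1.46 and called, so the result depends on which replicate is kept. The median of the 9 genes was -0.41, beside 0.05 over all tested genes.

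In AMO1 BtzR, 2 of the 9 genes fell, where 4.57% of tested genes were called lower and 4.61% higher. In AMO1 WT, MS4A1, CD22, CD72, CR2, CD24 and BLK had means under 1 FPKM, so on this scale they could not be called lower. BTK fell by 4.23 on the log2 scale (SE 0.14, adjusted p = 1.2e-11), so that it was the gene of the 9 with the largest change in this line as in RPMI-8226. CD79B fell by 1.06 (SE 0.11, adjusted p = 2.6e-06), close to the fold threshold, and with quantile normalization it was -0.999 and no longer called. CR2 (-0.56, adjusted p = 0.0032) and BLK (-0.26, adjusted p = 0.025) had lower values in both resistant libraries but did not reach the fold threshold, and were called at -1.95 and -1.01 with a pseudocount of 0.1. CD79A (0.11, SE 0.14) was not called, and its resistant libraries lay above those of AMO1 WT. The comparison of the libraries labelled AMO1 CfzR with AMO1 WT, below, shares the AMO1 WT libraries.

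In L363 WT every gene of the 9 but CD79B had a mean of 1.17 FPKM or less. CD79B was the 1 gene called in L363 BtzR, and it rose by 1.01 on the log2 scale (SE 0.11, adjusted p = 2.0e-05), where 1.02% of tested genes were called higher and 1.05% lower. The difference was 0.97 without L363 WT replicate 2 and 0.83 without L363 BtzR replicate 1, under the threshold in both cases. In L363 CfzR no gene was called by limma, where 1.93% of tested genes were called in either direction, and 1 of the 9 had an unadjusted p under 0.05. This was CD79B, at 0.95 (SE 0.11, adjusted p = 4.0e-05), just under the fold threshold. CD79A in L363 BtzR was -0.53 (SE 0.14, adjusted p = 0.027), opposite in sign to CD79B, and was called at -1.08 with a pseudocount of 0.1. The comparisons of L363 BtzR, of L363 CfzR and, below, of the libraries labelled AMO1 CfzR share the L363 WT libraries.

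In ARH-77 BtzR, where 0.955% of tested genes were called higher and 0.649% lower, CD24 was the 1 gene called. It rose by 1.15 on the log2 scale (SE 0.15, adjusted p = 9.8e-05), and by 0.97, under the threshold, without ARH-77 BtzR replicate 1. MS4A1 (log2-fold change 0.35, SE 0.07, adjusted p = 0.0047) and CD22 (0.40, SE 0.12, adjusted p = 0.035) had higher values in both resistant libraries below the fold threshold. Each SE is pooled over all 10 groups, most of which are near 0 FPKM for MS4A1 and CD22. It need not reflect the spread within ARH-77, where the WT libraries had CD22 at 169 and 231 FPKM. BTK (0.26, SE 0.14) and BLK (0.06, SE 0.09), which fell in RPMI-8226, were not called in ARH-77.

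For the libraries labelled AMO1 CfzR the result depended on the parent chosen. Against AMO1 WT, BTK alone was called, lower by a log2-fold change of -4.00 (adjusted p = 3.4e-12), where 9.21% of tested genes were called lower. Against L363 WT, CD79B alone was called, higher by 1.41 (SE 0.11, adjusted p = 7.0e-07), where 0.856% of tested genes were called higher. BTK against L363 WT was -0.25 (SE 0.14, adjusted p = 0.43). CD79B against AMO1 WT was -0.96 (adjusted p = 3.6e-06), and -1.03 and called with equal library sums. CR2 against AMO1 WT was -0.66 (adjusted p = 7.0e-04) and BLK was -0.42 (adjusted p = 9.6e-04), both listed at 0 in the libraries labelled AMO1 CfzR. With a pseudocount of 0.1 they were called at -2.76 and -2.13, and CR2 was also called with equal library sums, at -1.16.

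**Figure D4:**
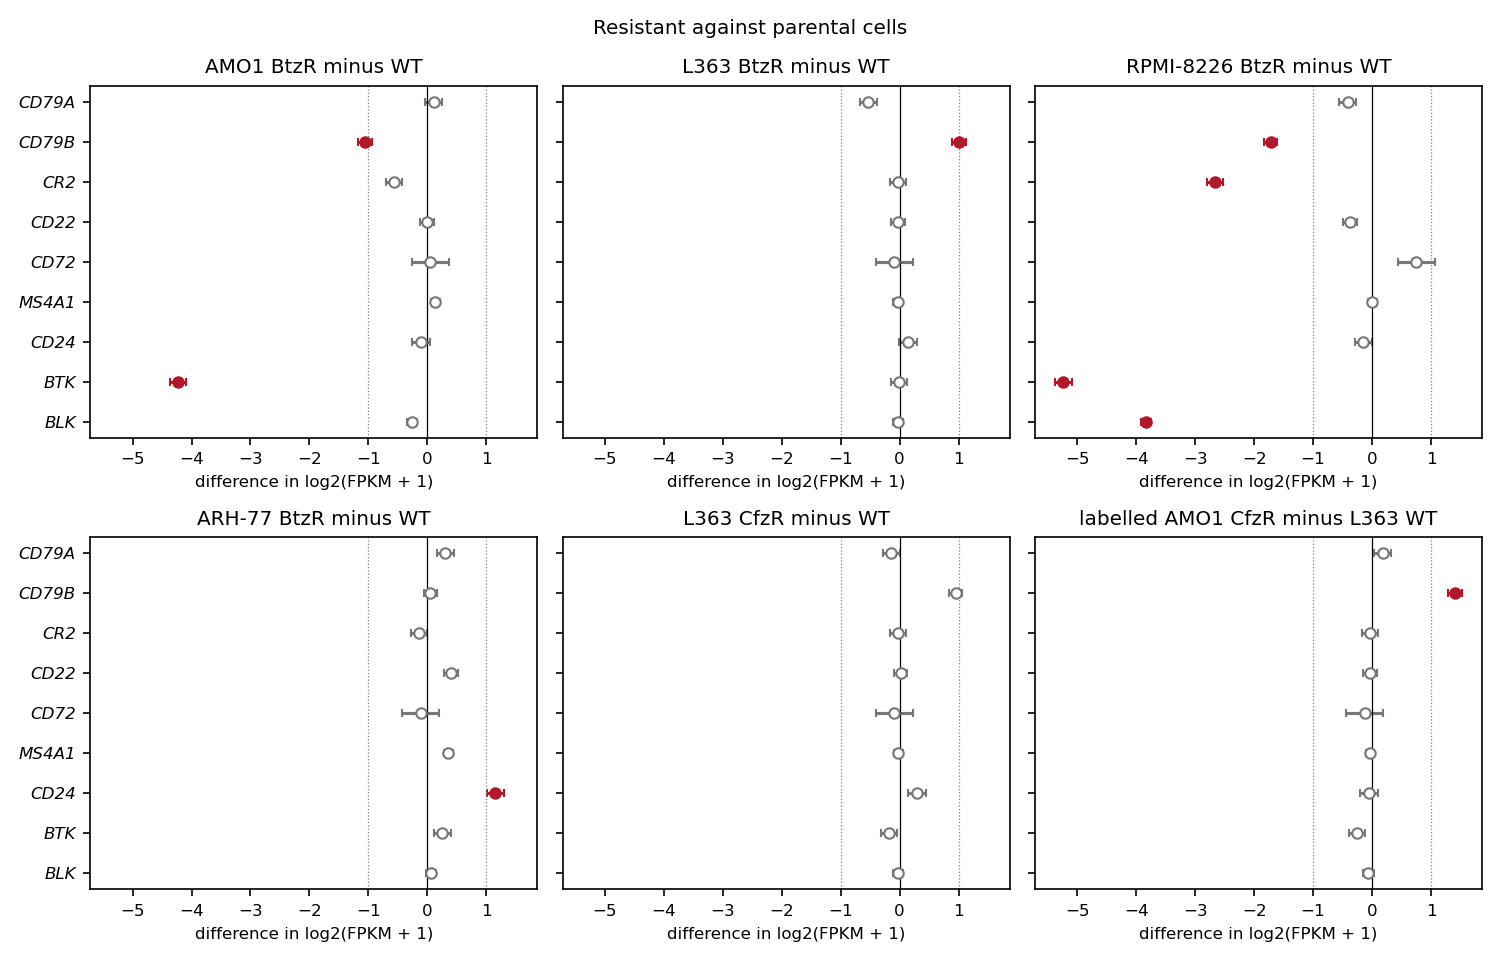
Difference in log2(FPKM + 1) between resistant and WT cells for each gene, with bars of 1 standard error from the limma fit, filled points for called differences and dotted lines at the fold threshold. BTK, BLK, CR2 and CD79B are called lower in RPMI-8226 BtzR, BTK and CD79B in AMO1 BtzR, CD79B is called higher in L363 BtzR and in the libraries labelled AMO1 CfzR against L363 WT, and CD24 higher in ARH-77 BtzR.

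Whether the bortezomib effect differed between the 4 lines was tested by a moderated F test in limma. It passed an adjusted p of 0.05 for 71.1% of all tested genes and not for CD72 (adjusted p = 0.25). MS4A1 and CD22 reached a mean of 1 FPKM in the ARH-77 groups alone, so for them the test sets ARH-77 against lines near 0 FPKM and nothing is read from it. For CD79B, with adjusted p = 9.5e-09, the direction itself differed, as the difference was -1.72 in RPMI-8226, -1.06 in AMO1, 1.01 in L363 and 0.05 in ARH-77. For BTK, with adjusted p = 8.2e-12, it was -5.23, -4.23, -0.02 and 0.26 in the same order, and the large falls were in the myeloma lines whose WT cells held BTK.

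Other genes of the pathway were taken from lists of receptor kinases and adaptors, inhibitory receptors and phosphatases, B-cell identity and plasma cell genes. Of 24 kinases and adaptors, 6 were lower and 1 higher in RPMI-8226 BtzR, where 7.92% of all tested genes were lower and 5.91% higher. Among the lower ones were the phosphoinositide 3-kinase subunit PIK3CG (13.4 to 0.08 FPKM in the mean, log2-fold change -3.74) and the adaptor DAPP1 (-3.56). The Src-family kinase FYN was higher (1.12). In AMO1 BtzR, where 4.57% of all tested genes were lower and 4.61% higher, 3 of the list were lower and 1 higher, with the Src-family kinase FGR at -3.32, DAPP1 at -1.67, the adaptor SH3BP2 at -1.45 and BLNK, the adaptor that binds BTK, at 1.16. None of the 24 was called in L363 BtzR, where 1.02% of all tested genes were higher and 1.05% lower. The median log2-fold change of the list was -0.36 in RPMI-8226 BtzR and -0.20 in AMO1 BtzR. In L363 CfzR, FGR (1.17) and NFATC1 (1.08) were higher and RASGRP3 (-1.03) lower, beside 1.93% of all tested genes called in either direction.

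Among 19 tested inhibitory receptors and phosphatases, 5 were lower in each of AMO1 BtzR and RPMI-8226 BtzR, beside 4.57% and 7.92% of all tested genes. PTPN6, which encodes the phosphatase SHP-1 recruited by CD22 and CD72, fell from a mean of 143 to 9.66 FPKM in AMO1 BtzR (log2-fold change -3.75), with LILRB1 at -2.02 and PTPN22 at -1.87, while the adaptor DOK3 rose (1.11). In RPMI-8226 BtzR the largest falls were PTPN22 (-3.23), the lipid phosphatase INPP5D (-2.93) and LILRB4 (-2.70). PTPN6 was lower there too, at 0.08 and 0.24 FPKM against 6.04 and 6.69 FPKM in RPMI-8226 WT. LILRB4 was the 1 gene of this list called in L363 BtzR, at -1.38, where 1.05% of all tested genes were lower. FCRL4 was the 1 called in ARH-77 BtzR, at 1.28, where 0.955% of all tested genes were higher. None was called in L363 CfzR, where 1.93% of all tested genes were called in either direction. The medians of this list, -0.07 in RPMI-8226 BtzR and -0.09 in AMO1 BtzR, stayed near those of all tested genes, which were 0.05 and -0.00.

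Of 4 co-receptor genes, 2 rose in RPMI-8226 BtzR, where 5.91% of all tested genes were called higher. These were IFITM1 (4.98) and the tetraspanin CD81 (1.24), where CR2, a member of the same complex, fell. IFITM1 fell in AMO1 BtzR (-3.45) and in L363 BtzR (-2.08), where 4.57% and 1.05% of all tested genes were lower.

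In the list of B-cell identity genes, 6 of 14 tested were lower in RPMI-8226 BtzR and none higher, beside 7.92% and 5.91% of all tested genes. CD37, a tetraspanin of B cells, fell from 71.9 and 68.6 FPKM to 0.09 and 0.18 FPKM (log2-fold change -5.97), SPI1 changed by -4.27 and FCER2 (CD23) by -3.19 on the log2 scale. SPI1, which encodes PU.1, stood at 20.3 and 22.5 FPKM in RPMI-8226 WT and at 0.24 and 0.08 FPKM in RPMI-8226 BtzR, at 6.48 and 7.22 FPKM in ARH-77 WT, and at no more than 0.15 FPKM in the libraries of AMO1 and L363. In AMO1 WT, BTK stood at 16.2 and 23.0 FPKM and SPI1 at 0.15 and 0 FPKM. A link between SPI1 and BTK was not tested. In AMO1 BtzR, 4 identity genes were lower, beside 4.57% of all tested genes, led by CD37 (-5.44), CD180 (-3.44) and FCER2 (-1.76), and the class II regulator CIITA was higher (3.49). In ARH-77 BtzR, FCER2 was higher (1.06) and TCL1A lower (-1.33), beside 0.955% and 0.649% of all tested genes. In L363 CfzR CIITA was lower (-1.13), beside 1.93% of all tested genes called in either direction. The list's median was -0.54 in RPMI-8226 BtzR and -0.03 in AMO1 BtzR.

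Of 12 plasma cell genes tested, 5 were lower in RPMI-8226 BtzR, beside 7.92% of all tested genes, led by CD28 (-5.25), CD38 (-3.80) and TNFRSF17, which encodes BCMA (-3.74). In AMO1 BtzR 4 were lower, beside 4.57% of all tested genes, led by GPRC5D (-3.47), FCRL5 (-2.63) and SDC1 (-1.22). GPRC5D was also called in L363 BtzR (-1.11), where 1.05% of all tested genes were lower. CD38 was called in ARH-77 BtzR (-1.46), where 0.649% of all tested genes were lower. Against the parental myeloma lines ARH-77 WT was lower in 8 of the 12, beside 10.3% of all tested genes, led by JCHAIN (-9.41), SDC1 (-5.12) and CD28 (-4.82), and higher in none. Of 14 B-cell identity genes 12 were higher in ARH-77 WT, beside 11.9% of all tested genes, led by PAX5 (5.26), CD40 (5.18) and TCL1A (4.59). CD180 (-1.24) and BACH2 (-1.19) were lower. PAX5 and TCL1A, among others of this list, passed the expression filter through the ARH-77 groups alone, so their calls were nearly given.

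Of 16 lymphoid transcription factors, 1 was higher and 2 lower in RPMI-8226 BtzR, beside 5.91% and 7.92% of all tested genes. In AMO1 BtzR 3 were higher and 1 lower, beside 4.61% and 4.57%. POU2AF1, a B-cell coactivator, fell by 4.89 on the log2 scale in RPMI-8226 BtzR and rose by 1.09 in AMO1 BtzR. The octamer-binding factor POU2F2 fell by 3.39 in AMO1 BtzR. ETS1 rose in both, by 2.31 in RPMI-8226 BtzR and by 3.09 in AMO1 BtzR. None of the 16 was called in L363 BtzR, L363 CfzR or ARH-77 BtzR. Of all tested genes, 1.02% were higher and 1.05% lower in L363 BtzR, and 0.955% and 0.649% in ARH-77 BtzR. In L363 CfzR 1.93% were called in either direction, so the absence of calls is near these shares.

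Markers of other blood cells were summed as a check. Summed FPKM per library was at most 0.33 for 3 erythroid genes, 13.3 for 6 T-cell genes, 8.29 for 4 NK-cell genes and 19.3 for 6 myeloid genes. The highest myeloid sums, 16.8 and 19.3 FPKM, were in RPMI-8226 WT, against 6.44 and 8.56 FPKM in RPMI-8226 BtzR, where B-cell genes were lower too, and CD33 made up the 1 myeloid call (12.1 to 0.03 FPKM in the mean). Of 4 tested T-cell genes, 1 was lower in every comparison of resistant with WT cells, but not the same gene in each. Of all tested genes, 4.57% were lower in AMO1 BtzR, 1.05% in L363 BtzR, 7.92% in RPMI-8226 BtzR and 0.649% in ARH-77 BtzR. In L363 CfzR 1.93% were called in either direction. The T-cell gene called in AMO1 BtzR was CD3E, a chain of the T-cell receptor complex, at a mean of 8.70 FPKM in WT and 0.90 FPKM in BtzR cells (-2.33). In the other lines it was TRAT1, an adaptor of that receptor, at -3.00 in L363 BtzR, -2.76 in L363 CfzR, -1.08 in RPMI-8226 BtzR and -2.29 in ARH-77 BtzR. The part of these markers in the changes of the 9 genes was not tested.

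**Figure D5:**
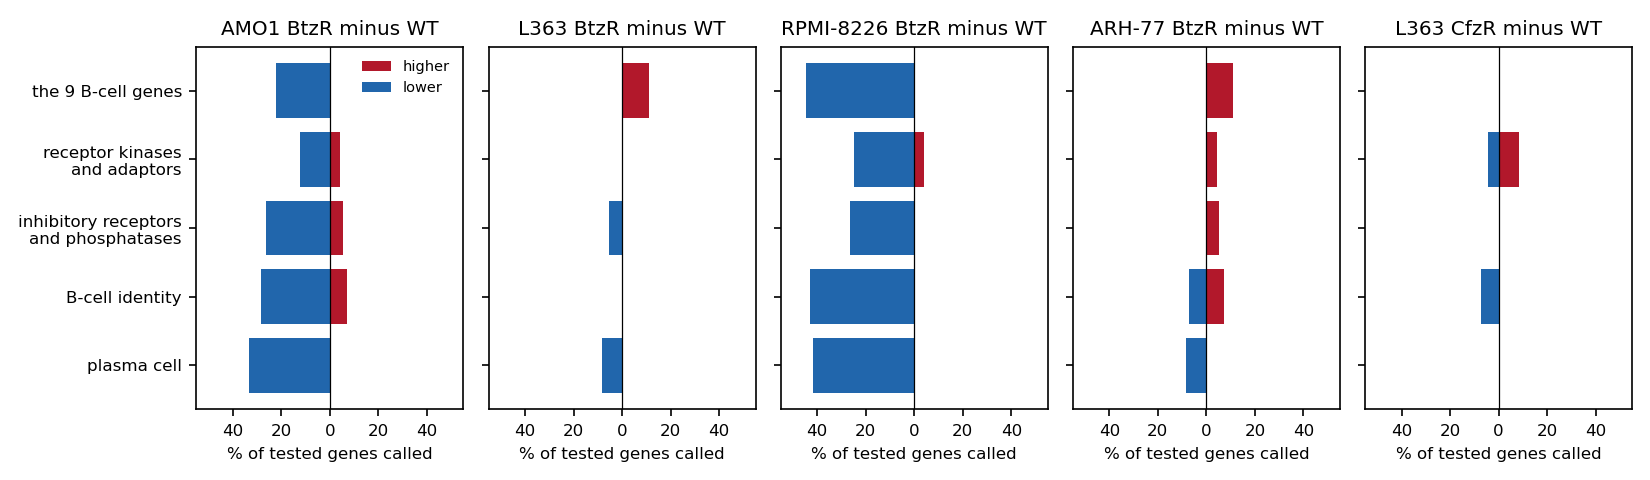
Percent of the tested genes of each list that were called higher (right) or lower (left) in 5 comparisons of resistant with WT cells. In RPMI-8226 BtzR 4 of the 9 B-cell genes, 6 of 14 identity genes and 5 of 12 plasma cell genes are called lower. The share of all tested genes called lower there is 7.92%. In L363 and ARH-77 at most 3 genes of any list are called. All tested genes were called at 0.649% to 1.05% per direction in L363 BtzR and ARH-77 BtzR, and at 1.93% in either direction in L363 CfzR.

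Genes with the pattern nearest to each gene were listed by Pearson's r of group means of log2(FPKM + 1) over the 10 groups, as a description that carries no test and that leans on the ARH-77 groups. BTK was closest to PNOC (r = 0.997), CD37 (0.996) and CRIP1 (0.995). BLK was closest to POMC (0.996), TLR3 (0.995) and CLIP4 (0.994), and CR2 to NCF1 (0.997), CLIP4 (0.996) and GPR55 (0.995). The pattern of CD79B was most like that of PLCG2, the phospholipase that BTK phosphorylates (0.976), then ANKRD52 (0.974) and HLTF (0.968). PLCG2 fell with CD79B in RPMI-8226 BtzR (log2-fold change -1.50), although it was not called in AMO1 BtzR. CD79A was nearest to ANGPTL6 (0.993), RHOV (0.993) and TCF7 (0.993), and CD72 to GALNT14 (0.995), MCTP1 (0.991) and GCFC2 (0.988). CD24 had the weakest likeness of its first gene, LILRA4 (0.971), followed by TSPAN11 (0.956) and CCL2 (0.953). MS4A1 (IGF2BP1, CD80 and SMIM3) and CD22 (HMSD, RIMBP2 and PAX5) each had 3 genes at r = 1.00 after rounding, all patterns of presence in ARH-77 alone.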

How the data were processed

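RNA from pellets of 20 cultures was sequenced on a BGISEQ-500 instrument at BGI. For 18305 genes the authors deposited FPKM, 1 column per replicate, given to 2 decimals with no further normalization stated. The submitters' processing notes name HISAT2 2.0.4, Bowtie2 2.2.5 and RSEM 1.2.12, and the genome build and strand setting are not given in the sources used here. Each column was matched to its sample by line, drug and replicate number.

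FPKM values were transformed as log2(FPKM + 1) and fitted with limma 3.58.1 in R 4.3.3, as 10 group means with a mean-variance trend and 10 residual degrees of freedom. The 13089 genes whose mean reached 1 FPKM in any group were tested. There were 11 comparisons, with calls at a log2-fold change of 1 or more in size and an adjusted p under 0.05 (Benjamini-Hochberg), and an F test over the 4 lines. Depth is unknown, so precision rests on the spread between the 2 replicates of a group, pooled for each gene over all 10 groups. For a gene near 0 FPKM in most groups, the SE therefore comes mostly from those groups. An exact permutation test of 2 against 2 cannot go below p = 0.33 and was not used. The fit was tested on simulated data. No column was left out, and no protein data were used.

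The 9 genes and the other lists were chosen with earlier results of these data known, and some lists share genes (FCRLA, SPI1, PAX5, SPIB and CD5 each stand in 2). Genes named from a list are the called ones with the largest change, up to 3 in each direction per list and comparison, and the 3 genes most like each of the 9. Some genes that this rule names are not reported here. Levels given for SDC1 and SPI1 in single groups, PLCG2 in RPMI-8226 BtzR and PTPN6 in RPMI-8226 were chosen after their values were seen. Alternatives were other pseudocounts (0.1, 0.01), no filter or a filter of 5 FPKM, equal library sums as for TPM, quantile normalization, no trend, a replicate block, a fit of the compared libraries or without those labelled AMO1 CfzR, and leaving out each library. Promoter windows came from RefSeq (GRCh38.p14) and overlaps from GENCODE 29. Figures were drawn in Python 3.11.15 with matplotlib 3.10.9.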

Additional observations from a re-analysis of the deposited data

Results flagged for a closer look

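The change with bortezomib resistance differed between the 4 lines, by limma's moderated F test with Benjamini-Hochberg adjustment, for 71.1% of all tested genes and for the following. Adjusted p was 6.6e-12 for BLK, whose log2-fold change was -3.83 in RPMI-8226 and 0.06 in ARH-77, and 8.2e-12 for BTK, at -5.23 in RPMI-8226 and -4.23 in AMO1 against 0.26 in ARH-77. It was 9.5e-09 for CD79B, which fell in RPMI-8226 and AMO1 and rose in L363, and 5.9e-08 for CR2, which fell in RPMI-8226. For CD24 it was 2.4e-04, with the rise in ARH-77. It was 0.0051 for CD79A, which was called in none of the 4 lines. The values for CD22 (0.0072) and MS4A1 (0.016) set ARH-77, the one line where either reached a mean of 1 FPKM, against lines near 0 FPKM, and nothing is read from them. Other genes also had little RNA to lose in some lines. Means in AMO1 WT and L363 WT were 0.345 and 0.045 FPKM for BLK and 0.59 and 0.025 FPKM for CR2. BTK was at 0.51 FPKM in L363 WT, and CD79A at 1.49 FPKM or less in each myeloma WT group. The F test cannot separate such low WT levels from a response particular to a line. No group of these data holds enough samples for a search for single outlying libraries.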

How the results depend on the processing

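The counts of called genes stayed within 1.5 times their value in 167 of 182 recomputations. For the 53 differences that were called under any setting, the main one included, 756 log2-fold changes were recomputed. Of these, 730 kept their direction and call, 22 became called, 4 lost the call and 0 reversed. The differences never called are not in these counts and are given at the end of this paragraph. With a pseudocount of 0.1 the count was 4 in AMO1 BtzR (0 higher), 2 in L363 BtzR, 1 in L363 CfzR and 3 for the libraries labelled AMO1 CfzR against AMO1 WT. With 0.01 it was 2 in L363 BtzR, 2 in L363 CfzR, and for the libraries labelled AMO1 CfzR 4 against AMO1 WT and 2 against L363 WT. A filter of 5 FPKM removed CD24 and left 0 in ARH-77 BtzR. Equal library sums gave 1 in L363 CfzR and 3 for the libraries labelled AMO1 CfzR against AMO1 WT, and quantile normalization gave 1 in AMO1 BtzR. Leaving out 1 library gave 0 to 1 in L363 BtzR and 0 to 1 in ARH-77 BtzR. The cause of these shifts was not tested beyond the removal of CD24. BTK was called in RPMI-8226 BtzR and AMO1 BtzR under all 14 alternatives, with log2-fold changes of -9.35 to -5.16 and -7.74 to -3.99. Among 46 differences not called under any setting, 17 changed sign, each at most 0.15 in size.

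Same-numbered replicates deviated from their group means together with a median r of 0.10 (-0.15 to 0.34), over 0.1 in 22 of 45 pairs of groups. Within the comparisons of resistant with WT cells r was 0.12 to 0.24 except for AMO1 BtzR, at -0.0055, so the numbers were not taken to pair the samples. With the replicate block 4 genes were called in RPMI-8226 BtzR and 2 in AMO1 BtzR, and it changed no call. Unknown depth limits what can be said of genes under 1 FPKM.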
